A study of Mus musculus with 16 samples.

Results

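The 10 genes described here, Gfap, Vim, Cd44, S1pr3, Steap4, Aspg, Cd109, Emp1, Ptx3 and Hspb1, are transcripts commonly read as markers of reactive astrocytes. They were taken by gene symbol from a table of 19449 genes, whose identifiers were matched to symbols in the GENCODE M21 annotation. All 10 were found, and all 10 passed the filter on low counts that left 16269 genes for testing. RNA-seq libraries had been made from the hippocampus of mice 3 months old in 4 groups of 4 libraries: Tspo knockout (KO) mice injected with LPS, KO mice injected with PBS, wild-type (WT) mice injected with LPS and WT mice injected with PBS. Tspo encodes the translocator protein of the outer mitochondrial membrane. LPS is lipopolysaccharide, a component of the bacterial cell wall, and PBS is the saline vehicle. Dose, route and timing of the injection are not given in the sources used here, and neither are the strain, the sex or the kind of Tspo allele. Nothing says that replicates are different animals, so n counts libraries and the errors measure the spread between libraries, which may be technical. An SD is that of the group named. The SE of a fitted change draws for each gene on a spread shared by all 16 libraries, not only those compared.

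Astrocytes answer injury, infection and cytokines with a change of state called reactivity, in which they build up intermediate filaments, secrete acute-phase and matrix proteins and alter their surface receptors. Signals through gp130 receptors and the transcription factor STAT3, and interleukin-1, tumour necrosis factor and complement C1q released by microglia, are well-known drivers of this state. Work in mice has divided the markers into a shared set, a set most induced by LPS and a set most induced by ischaemia, and Cd109, Emp1 and Ptx3 come from the last of these, the other genes described here from the first.

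Library totals lay between 30198619 and 50009041 counts. Levels are given in CPM, counts scaled to a common library total after TMM adjustment. Hippocampal subfield markers summed to 419 to 797 CPM and neuronal markers to 8140 to 10300 CPM in every library, and 16 astrocyte identity genes such as Slc1a2 and Aqp4 summed to 6370 to 7350 CPM. Thalamic and cerebellar markers varied more, from 97.8 CPM in a KO PBS library to 738 CPM in a WT PBS library. Tspo had 0.486, 0.366, 0.274 and 0.209 CPM in KO LPS replicates 1 to 4, against 2.63, 11.9, 9.4 and 10.1 CPM in WT LPS (difference of mean log2 CPM -4.31, exact two-sided permutation p = 0.0286, the smallest that 4 against 4 libraries allow). It had 2.33, 0.152, 0.28 and 0.47 CPM in the KO PBS libraries, against 2.52, 2.59, 2.06 and 5.17 CPM in WT PBS (difference -2.44, exact permutation p = 0.0571). Without the library labelled KO PBS replicate 1 the difference was -3.15 (exact permutation p = 0.0286). That library holds Tspo at the WT level, contrary to its genotype label, and it is part of each KO PBS value given here. WT LPS replicate 1 and WT PBS replicate 1 stand apart in another way: their summed level of 8 choroid plexus genes was 13.9 and 11.8 CPM, while the other 14 libraries lay between 571 and 3440 CPM. The titles hold codes whose meaning is not stated, one shared by WT LPS replicates 2 to 4 and the library labelled KO PBS replicate 4, one by WT LPS replicate 1 and WT PBS replicate 4, one by WT PBS replicates 1 to 3, and one by KO LPS replicates 1 and 2. No code spans the genotypes within a treatment, or PBS and LPS within KO, so there code and group cannot be told apart.

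In WT hippocampus, 6 of the 10 genes were higher after LPS than after PBS: Gfap, Vim, Steap4, Aspg, Emp1 and Hspb1 rose, by a log2 fold change of 0.75 to 2.74 (adjusted p below 0.05 over 16269 genes, quasi-likelihood F test of edgeR). None fell. Of all genes tested, 4.72% rose and 3.85% fell. In LPS-injected mice, 7 of the 10 genes were lower in KO than in WT, the same 6 and Ptx3, by -0.94 to -3.11, where 7.28% of all genes were lower and 4.61% higher. In KO mice the test called none of the 10 between LPS and PBS, and none between the genotypes under PBS. The median log2 fold change of the 10 genes was 1.11 for LPS against PBS in WT and -1.38 for KO against WT under LPS, beside 0.002 and -0.002 over all genes tested. In whole tissue, fewer astrocytes, less of a transcript per astrocyte and a change in other cells that express it cannot be told apart.

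**Figure D1:**
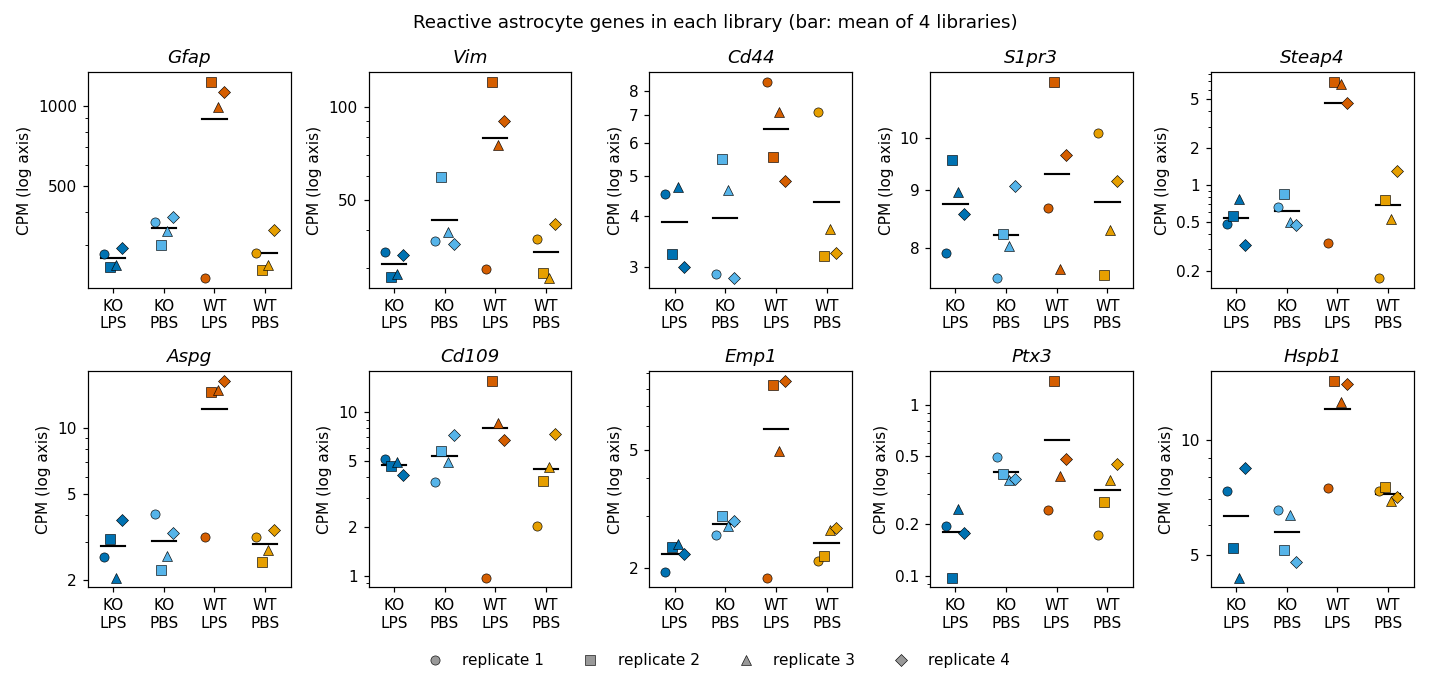
Level of each of the 10 genes in every library, in CPM on log axes whose ranges differ between panels. Symbols mark the replicate number, the horizontal bar is the mean of the 4 libraries of a group, and in Gfap, Vim, Steap4, Aspg, Emp1 and Hspb1 WT LPS replicates 2 to 4 lie above every other library.

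Gfap and Vim encode the intermediate filament proteins glial fibrillary acidic protein and vimentin, which form the cytoskeleton that thickens in reactive astrocytes. Gfap (ENSMUSG00000020932; chromosome 11, 102887336 to 102900912, minus strand, GRCm38) had 278, 249, 253 and 292 CPM in KO LPS replicates 1 to 4, and 366, 301, 340 and 384 CPM in the KO PBS libraries. In WT it had 225, 1230, 989 and 1130 CPM after LPS, against 281, 243, 252 and 341 CPM after PBS. WT LPS replicates 2 to 4 were above every other library of the series, whereas WT LPS replicate 1 was the lowest of all 16. The WT means were 895 ± 458 CPM with LPS and 279 ± 44.3 CPM with PBS (SD, n = 4 each), a log2 fold change of 1.68 ± 0.34 (SE; adjusted p = 0.00919, edgeR). Under LPS the KO mean was 268 ± 20.5 CPM, and the log2 fold change of KO against WT was -1.74 ± 0.34 (adjusted p = 0.00667, edgeR). The Gfap call held in both comparisons whichever single library was left out, but in a fit of only the 8 libraries compared it did not pass in WT (adjusted p = 0.115, edgeR) or under LPS (adjusted p = 0.061).

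Vim (ENSMUSG00000026728; chromosome 2, 13573927 to 13582826, plus strand) followed the same libraries at a lower level. It had 34, 28, 28.7 and 33.1 CPM in KO LPS, and 36.7, 59.5, 39.4 and 36 CPM in the KO PBS libraries. The WT libraries had 29.8, 75.6 and 90.3 CPM after LPS in replicates 1, 3 and 4, with replicate 2 the highest at 3.56 times the WT PBS mean, against 37.3, 29, 27.8 and 41.9 CPM after PBS. For Vim, WT LPS replicate 1 lay inside the WT PBS range, and the other WT LPS libraries lay above all libraries of the series. The WT change was 1.22 ± 0.3 (adjusted p = 0.0222, edgeR), and it did not pass without any of WT LPS replicates 2, 3 or 4 or WT PBS replicates 2 or 3 (adjusted p 0.0551 to 0.0767). Under LPS, Vim was lower in KO by a log2 fold change of -1.36 ± 0.3 (adjusted p = 0.0124, edgeR), a call that held without any single library but not in the fit of 8 libraries (adjusted p = 0.0655). Of their filament partners, Synm and Nes, which encode synemin and nestin and copolymerise with vimentin, neither passed in either comparison, with Synm at 74.8 ± 21.6 CPM in WT LPS and 71 ± 3.3 CPM in WT PBS.

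The promoter sequences in the next paragraphs are shown because STAT3 and heat shock factor are the textbook regulators of several of these genes and their motif letters can be looked for directly. Each window runs from 250 bases before to 50 bases after the start in RefSeq on GRCm38.p6, and 9 of the 10 genes had at least 1 window, all but Cd109. The STAT motif TTCNNNGAA was found in 3 of these 9 genes, Gfap, Steap4 and Emp1, and in 8.3% of 32851 promoter windows of the genome. In the Gfap window the match, in capitals, lies at bases -2 to 6, counting the first transcribed base as 0. This RefSeq start lies within the longer GENCODE gene.
Gfap (chr11:102897151-102897450, minus strand): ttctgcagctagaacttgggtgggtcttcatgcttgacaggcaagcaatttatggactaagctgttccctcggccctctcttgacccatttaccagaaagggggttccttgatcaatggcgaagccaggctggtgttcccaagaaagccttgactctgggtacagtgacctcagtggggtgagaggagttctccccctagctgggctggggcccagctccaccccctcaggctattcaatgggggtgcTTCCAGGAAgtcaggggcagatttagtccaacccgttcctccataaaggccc

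Cd44 and S1pr3 encode cell-surface receptors: CD44 binds hyaluronan and osteopontin, and S1PR3 is a G protein-coupled receptor for sphingosine 1-phosphate. Cd44 (ENSMUSG00000005087; chromosome 2, 102811141 to 102901665, minus strand) had 4.5, 3.24, 4.69 and 3.01 CPM in KO LPS, and 2.89, 5.49, 4.62 and 2.82 CPM in the KO PBS libraries. WT levels were 8.43, 5.54, 7.11 and 4.84 CPM after LPS, against 7.11, 3.2, 3.72 and 3.25 CPM after PBS. The 4 KO LPS libraries all lay below the 4 WT LPS libraries, as in 6.98% of genes tested, but the fitted difference of -0.74 ± 0.29 did not pass (adjusted p = 0.107, edgeR). The WT difference between LPS and PBS was 0.58 ± 0.29 (adjusted p = 0.233, edgeR), and it passed without WT PBS replicate 1 (0.94, adjusted p = 0.0423). Cd44 was the only one of the 10 genes for which WT LPS replicate 1 was the highest library of its group.

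S1pr3 (ENSMUSG00000067586; chromosome 13, 51408639 to 51422797, plus strand) had nearly the same level throughout. It had 7.91, 9.56, 8.96 and 8.56 CPM in KO LPS, and 7.52, 8.22, 8.03 and 9.06 CPM in the KO PBS libraries. In WT it had 8.67, 11.2, 7.67 and 9.66 CPM after LPS, against 10.1, 7.57, 8.3 and 9.16 CPM after PBS, and the groups overlapped in every comparison. Its log2 fold change was 0.08 ± 0.12 for LPS against PBS in WT (adjusted p = 0.721, edgeR) and -0.09 ± 0.12 for KO against WT under LPS (adjusted p = 0.654, edgeR), with the smallest SE of the 10 genes. S1pr3 shares 45 exonic bases with the antisense lincRNA Gm32834, and whether strand was used in counting is not stated, so reads in that stretch are of uncertain origin. Its paralogue S1pr5, the receptor typical of oligodendrocytes, was lower after LPS in WT (-0.89 ± 0.15, adjusted p = 0.00455, edgeR) at 12.5 ± 2.87 CPM with LPS and 23.2 ± 3.72 CPM with PBS (SD, n = 4 each).

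Steap4 and Aspg encode enzymes. STEAP4 is a membrane metalloreductase that reduces iron and copper, and Aspg encodes an asparaginase. Steap4 (ENSMUSG00000012428; chromosome 5, 7960457 to 7982213, plus strand) had 0.486, 0.561, 0.768 and 0.328 CPM in KO LPS, and 0.664, 0.849, 0.504 and 0.47 CPM in the KO PBS libraries. The WT libraries had 0.336, 6.96, 6.64 and 4.66 CPM after LPS, against 0.174, 0.754, 0.531 and 1.3 CPM after PBS. WT LPS replicates 2 to 4 were far above every other library, and WT LPS replicate 1 lay inside the WT PBS range. Steap4 had the largest fitted changes of the 10 genes, 2.74 ± 0.67 for LPS against PBS in WT (adjusted p = 0.0211, edgeR) and -3.11 ± 0.68 for KO against WT under LPS (adjusted p = 0.0112, edgeR). The WT call did not pass without WT LPS replicate 2 or 3 or WT PBS replicate 2 or 3 (adjusted p 0.059 to 0.0691). The capitals in the Steap4 promoter mark its STAT motif match, at bases -116 to -108.
Steap4 (chr5:7960222-7960521, plus strand): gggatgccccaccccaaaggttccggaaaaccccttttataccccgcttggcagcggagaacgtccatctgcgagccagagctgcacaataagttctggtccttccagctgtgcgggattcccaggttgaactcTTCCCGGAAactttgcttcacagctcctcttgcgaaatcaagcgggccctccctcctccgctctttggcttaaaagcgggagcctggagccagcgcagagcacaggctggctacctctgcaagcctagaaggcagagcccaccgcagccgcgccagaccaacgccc

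Aspg (ENSMUSG00000037686; chromosome 12, 112106679 to 112127559, plus strand) gave the smallest adjusted p of the 10 genes in both comparisons that called any. It had 2.55, 3.1, 2.06 and 3.79 CPM in KO LPS, and 4.03, 2.24, 2.6 and 3.32 CPM in the KO PBS libraries. WT levels were 3.15, 14.6, 15 and 16.5 CPM after LPS, against 3.16, 2.44, 2.76 and 3.41 CPM after PBS. WT LPS replicates 2 to 4 lay close together and far above the other 13 libraries, none of which exceeded 4.03 CPM. The log2 fold change was 2.06 ± 0.38 for LPS against PBS in WT (adjusted p = 0.00578, edgeR) and -2.1 ± 0.38 for KO against WT under LPS (adjusted p = 0.00489, edgeR), and both calls held without any single library. In the fit of 8 libraries neither passed (adjusted p = 0.0859 in WT and 0.0502 under LPS, edgeR). Asrgl1, which encodes another enzyme with asparaginase activity, moved the other way, lower after LPS in WT (-0.35 ± 0.07, adjusted p = 0.00857, edgeR) and higher in KO than in WT under LPS (0.39 ± 0.07, adjusted p = 0.00489, edgeR).

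Cd109 and Emp1 encode membrane proteins, a GPI-anchored co-receptor that restrains TGF-beta signalling and epithelial membrane protein 1 of the PMP22 family. Cd109 (ENSMUSG00000046186; chromosome 9, 78615546 to 78716253, plus strand) had 5.16, 4.68, 4.93 and 4.14 CPM in KO LPS, and 3.73, 5.79, 4.95 and 7.21 CPM in the KO PBS libraries. In WT it had 0.977, 15.5, 8.58 and 6.72 CPM after LPS, against 2.03, 3.8, 4.65 and 7.38 CPM after PBS. The WT LPS libraries spanned the whole range of the series for this gene, and neither test passed (0.84 ± 0.53 for LPS against PBS in WT, adjusted p = 0.359, and -0.76 ± 0.53 for KO against WT under LPS, adjusted p = 0.369, edgeR). Without WT LPS replicate 1 both passed, at 1.2 (adjusted p = 0.0263, edgeR) and -1.12 (adjusted p = 0.0312, edgeR). The libraries with the least Cd109 in WT, replicate 1 of LPS and replicate 1 of PBS, are those low in choroid plexus transcripts, and they also had the most Cd44 of their groups. The defining choroid plexus gene Ttr, which encodes transthyretin, was at 1.5 CPM in WT LPS replicate 1 and 1.42 CPM in WT PBS replicate 1, and 1 of the 8 choroid plexus genes had no count in each of them. Summed ependymal markers were likewise lowest there, at 7.33 and 9.89 CPM, against 27 to 67.3 CPM in the other WT libraries. With both libraries left out, Cd109 passed in WT (0.97, adjusted p = 0.0449, edgeR) and under LPS (-1.13, adjusted p = 0.012, edgeR), and Cd44 missed the threshold in WT (0.79, adjusted p = 0.051, edgeR). The part of choroid plexus and ependymal tissue in these levels was not tested.

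**Figure D2:**
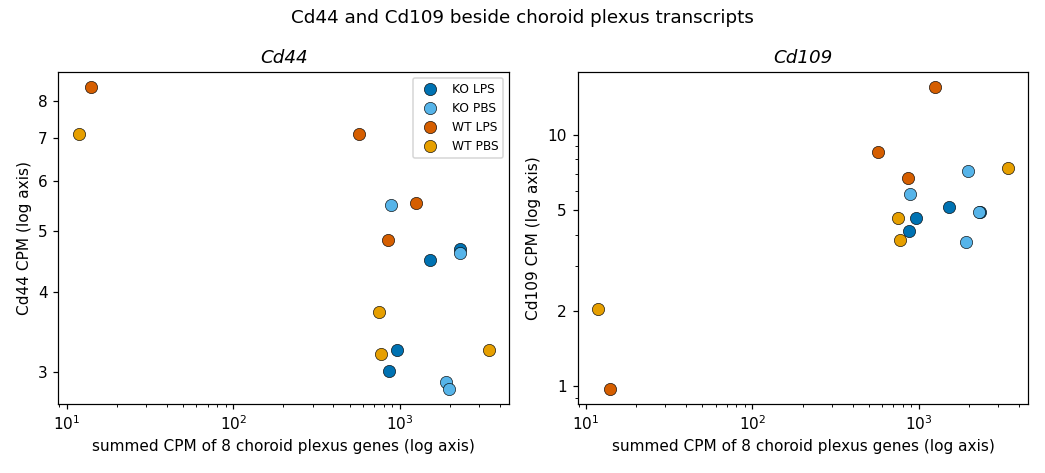
Cd44 (left) and Cd109 (right) in CPM against the summed CPM of 8 choroid plexus genes, both on log axes, with 1 point per library coloured by group. The libraries with 13.9 (WT LPS) and 11.8 CPM (WT PBS) of choroid plexus transcripts hold the highest Cd44 and the lowest Cd109 of their groups.

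Emp1 (ENSMUSG00000030208; chromosome 6, 135362545 to 135383173, plus strand) had 1.95, 2.36, 2.41 and 2.24 CPM in KO LPS, and 2.59, 3, 2.77 and 2.89 CPM in the KO PBS libraries. The WT libraries had 1.86, 8.2, 4.96 and 8.49 CPM after LPS, against 2.12, 2.2, 2.69 and 2.72 CPM after PBS. WT LPS replicate 1 was the lowest of all libraries, and WT LPS replicates 2 to 4 were above all others. Emp1 rose by 1.28 ± 0.32 in WT (adjusted p = 0.0237, edgeR), a call lost without any of WT LPS replicates 2 or 4 or WT PBS replicates 1, 2 or 3 (adjusted p 0.0503 to 0.0789), and was lower in KO under LPS by -1.4 ± 0.32 (adjusted p = 0.0141, edgeR). Pmp22, the founding member of its protein family and a myelin protein, went the other way: it was lower after LPS in WT (-0.8 ± 0.1, adjusted p = 0.00251, edgeR) and higher in KO than in WT under LPS (0.73 ± 0.1, adjusted p = 0.00308, edgeR). Emp1 has 2 promoter windows in the table, and the first is shown with capitals on STAT motif matches at -120 to -112 and -22 to -14 and on AP-1 motif matches (TGANTCA) at -145 to -139 and -25 to -19. The last AP-1 match overlaps the second STAT match, so they form 1 run of capitals. AP-1 matches were found in 1 of the 9 genes and in 7.81% of all promoter windows.
Emp1 (chr6:135362681-135362980, plus strand): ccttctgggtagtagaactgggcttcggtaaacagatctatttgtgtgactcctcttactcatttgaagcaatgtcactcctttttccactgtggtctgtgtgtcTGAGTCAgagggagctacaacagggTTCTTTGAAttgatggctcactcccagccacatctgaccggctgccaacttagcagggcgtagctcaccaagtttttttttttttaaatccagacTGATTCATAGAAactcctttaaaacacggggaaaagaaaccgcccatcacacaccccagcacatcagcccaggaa

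Ptx3 and Hspb1 encode soluble proteins, the long pentraxin PTX3, a secreted pattern-recognition molecule, and the small heat shock chaperone HSPB1. Ptx3 (ENSMUSG00000027832; chromosome 3, 66219910 to 66225805, plus strand, within an intron of Veph1, which lies on the other strand) was the least abundant of the 10. It had 8, 4, 9 and 6 counts (0.195, 0.0975, 0.247 and 0.179 CPM) in KO LPS, and 21, 13, 13 and 11 counts (0.498, 0.394, 0.364 and 0.369 CPM) in the KO PBS libraries. WT levels were 8, 69, 13 and 19 counts (0.244, 1.38, 0.382 and 0.481 CPM) after LPS, against 6, 9, 11 and 17 counts (0.174, 0.271, 0.365 and 0.453 CPM) after PBS. WT LPS replicate 2 alone was far above the rest. Under LPS Ptx3 was lower in KO (-1.82 ± 0.49, adjusted p = 0.0282, edgeR), but not past the threshold without WT LPS replicate 2 (-1.04, adjusted p = 0.114, edgeR) or without any of the 4 KO LPS libraries (adjusted p 0.0501 to 0.0799). Between LPS and PBS in WT it stood at 1 ± 0.47 (adjusted p = 0.202, edgeR, not passed), and at 0.23 without WT LPS replicate 2.

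Hspb1 (ENSMUSG00000004951; chromosome 5, 135887919 to 135889563, plus strand) had 7.35, 5.22, 4.36 and 8.44 CPM in KO LPS, and 6.57, 5.16, 6.38 and 4.8 CPM in the KO PBS libraries. In WT it had 7.48, 14.3, 12.6 and 14 CPM after LPS, against 7.37, 7.54, 6.91 and 7.11 CPM after PBS. WT LPS replicates 2 to 4 were again the highest of the series, and WT LPS replicate 1 lay inside the narrow WT PBS range. Hspb1 rose by 0.75 ± 0.21 in WT (adjusted p = 0.0406, edgeR), and the call was lost without any of WT LPS replicates 2 to 4 or any of the 4 WT PBS libraries (adjusted p 0.0647 to 0.116). Under LPS it was lower in KO by -0.94 ± 0.21 (adjusted p = 0.0133, edgeR). Of the other small heat shock genes listed, Cryab, encoding alpha-B crystallin and abundant in oligodendrocytes, was lower after LPS in WT (-1.01 ± 0.17, adjusted p = 0.00377, edgeR), and Hspb6 was higher (1.29 ± 0.31, adjusted p = 0.0203, edgeR). The heat shock element core GAANNTTC was found in 1 of the 9 genes, Hspb1, and in 7.86% of all promoter windows. Its matches, in capitals, lie at -117 to -110 and -97 to -90. The kappaB-type motif GGGANNTTCC was in none of the 9 genes and in 1.47% of all windows. Only these letters were searched, so their absence does not cover other forms of the motif. Similar runs, such as GGGAACTCCC in the Ptx3 window and GGGAGCTCCC in the Vim window, were not counted. A match is a run of letters and not a measured binding site, and each motif was searched on both strands.
Hspb1 (chr5:135887669-135887968, plus strand): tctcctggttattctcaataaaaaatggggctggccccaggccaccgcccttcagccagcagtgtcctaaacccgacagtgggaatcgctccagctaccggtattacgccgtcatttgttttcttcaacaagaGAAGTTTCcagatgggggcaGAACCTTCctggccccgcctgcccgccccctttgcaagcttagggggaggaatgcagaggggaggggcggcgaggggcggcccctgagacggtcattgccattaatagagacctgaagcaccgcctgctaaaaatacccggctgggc

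Per kilobase of exon the order of the mean levels was Gfap (212 ± 108), Vim (16.7 ± 8.02), Hspb1 (11.7 ± 3.08), Aspg (3.5 ± 1.75), S1pr3 (2.09 ± 0.341), Steap4 (1.47 ± 0.967), Cd109 (1.15 ± 0.869), Emp1 (0.991 ± 0.525), Cd44 (0.956 ± 0.237) and Ptx3 (0.232 ± 0.192 CPM per kilobase, SD, n = 4) in WT LPS. In WT PBS it was Gfap (66.1 ± 10.5), Vim (7.17 ± 1.42), Hspb1 (7.01 ± 0.271), S1pr3 (1.97 ± 0.247), Aspg (0.836 ± 0.122), Cd109 (0.647 ± 0.323), Cd44 (0.637 ± 0.277), Emp1 (0.41 ± 0.0532), Steap4 (0.219 ± 0.15) and Ptx3 (0.118 ± 0.0448 CPM per kilobase). KO LPS and KO PBS libraries gave the same order of means as WT PBS. Neighbours overlapped within 1 SD between Vim and Hspb1 in both WT groups, from Aspg to Cd44 in WT LPS and from Aspg to Ptx3 in WT PBS, and the other neighbours did not.

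WT LPS replicate 1 decided much of the spread in WT. Set against the range of the 4 WT PBS libraries, it was inside for 6 of the 10 genes, below for 3 (Gfap, Cd109 and Emp1) and above for Cd44. Replicate 2 was above that range for 9 genes, and replicates 3 and 4 for 7 each. In WT the LPS and PBS groups overlapped for each of the 10 genes, while 8.62% of all genes had groups without overlap. WT LPS replicate 1 shares its title code with WT PBS replicate 4, and within that code Gfap was at 225 CPM with LPS and 341 CPM with PBS, and Aspg at 3.15 CPM with LPS and 3.41 CPM with PBS. The codes differ in every other pairing of LPS with PBS in WT. The 6 calls in WT became 7 without this library, with Cd109 added to the same 6.

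**Figure D3:**
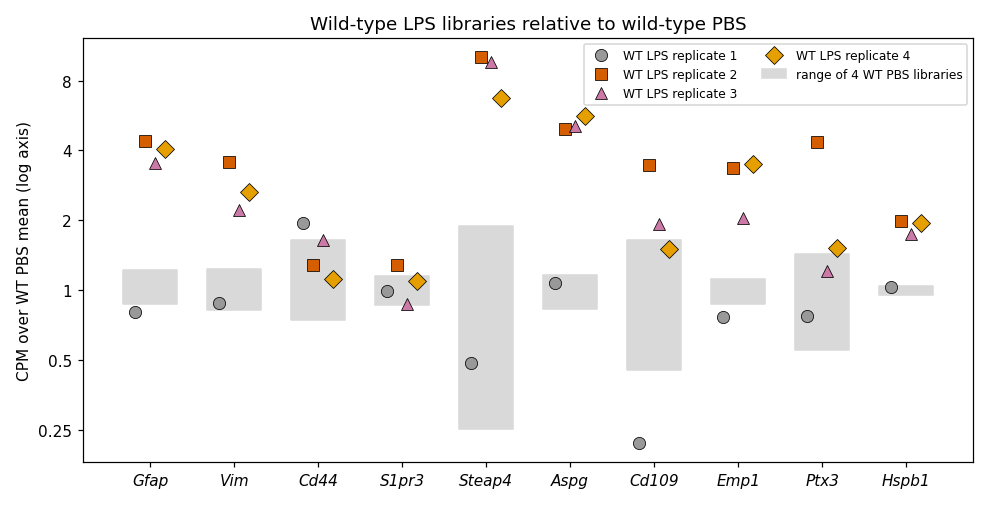
Level of each gene in the 4 WT LPS libraries divided by the mean of the 4 WT PBS libraries, on a log axis, with the grey band spanning the lowest and highest WT PBS library. WT LPS replicate 1 falls inside the band for 6 of the 10 genes, and replicate 2 falls above it for 9.

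In KO mice, the levels after LPS were near or below those after PBS. The median log2 fold change of the 10 genes was -0.2, and no gene of the series passed the test (0% of 16269, edgeR; 1120 genes had an unadjusted p below 0.05, and DESeq2 called 3). Gfap (-0.38 ± 0.33), Vim (-0.47 ± 0.3), Emp1 (-0.33 ± 0.32) and Ptx3 (-1.18 ± 0.51) did not pass (adjusted p 0.703 to 0.801, edgeR), yet for these 4 every KO LPS library lay below every KO PBS library. Groups apart in that direction were found in 3.51% of all genes. The SE of these fitted changes draws on all 16 libraries, the scattered WT LPS group included, and is not the spread of the KO libraries alone. The remaining 6 genes had log2 fold changes of -0.21 to 0.14. The library labelled KO PBS replicate 1 was not the highest of its group for Gfap, Vim or Emp1, and it was the highest, with 0.498 CPM, for Ptx3.

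Under PBS, KO and WT libraries differed little in these genes. Log2 fold changes lay between -0.33 and 0.36, none passed, and 0.0369% of all genes did (6 genes, edgeR). Hspb1 was below all WT PBS libraries in all 4 KO PBS libraries, with 5.73 ± 0.882 and 7.23 ± 0.28 CPM (SD, n = 4 each), at a fitted difference of -0.33 ± 0.21 (adjusted p = 0.918, edgeR). Groups apart in that direction were found in 1.82% of genes.

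Whether LPS acted differently by genotype was tested directly as the LPS effect in KO minus that in WT. None of the 10 genes passed, while 1.15% of all genes did. Gfap had -2.06 ± 0.47 (adjusted p = 0.0509, edgeR), Aspg -2.16 ± 0.53 (adjusted p = 0.0564), Vim -1.69 ± 0.43 (adjusted p = 0.0589) and Emp1 -1.6 ± 0.45 (adjusted p = 0.0749). Ptx3 and Steap4 had -2.18 ± 0.69 and -2.95 ± 0.96 (adjusted p = 0.0963 and 0.102, edgeR), and the remaining 4 lay between -1.03 and 0.01 (adjusted p 0.259 to 0.984). DESeq2 called 5 of the 10, Gfap, Vim, Steap4, Aspg and Emp1. Without WT LPS replicate 1, edgeR called 7, these 5 with Ptx3 and Hspb1, and without WT PBS replicate 4 it called Gfap, Vim and Aspg. The comparisons within WT and under LPS share the WT LPS libraries, so a high WT LPS group enters both.

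**Figure D4:**
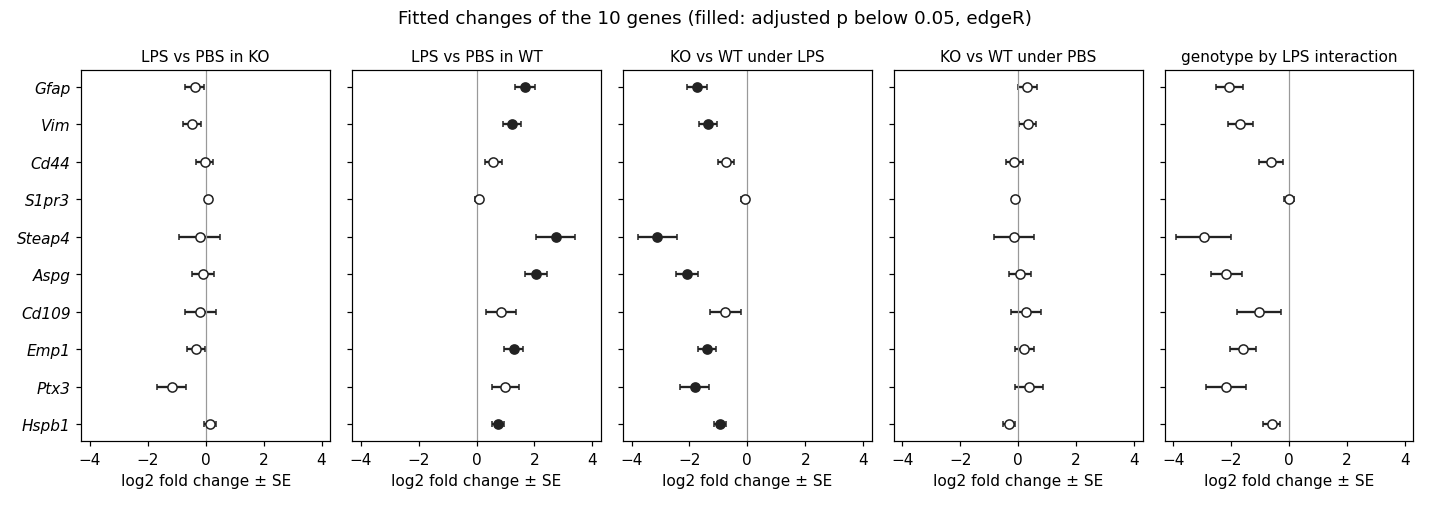
Fitted log2 fold changes of the 10 genes with their SE in the 5 comparisons, on a common axis, with filled symbols for an adjusted p below 0.05 (edgeR). Filled symbols appear for 6 genes in the comparison of LPS with PBS in WT and for 7 genes in the comparison of KO with WT under LPS, and in no other panel.

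The rest of the marker sets gives the setting of the 10 genes. Of the 6 other shared reactivity genes, Cp, Osmr, Cxcl10 and Serpina3n rose after LPS in WT and were lower in KO than in WT under LPS. Lcn2 and Timp1 passed both tests in the same directions, but they reached the filter level in enough libraries only through WT LPS, the group where they are high, so they add nothing to that count. Lcn2, encoding the iron carrier lipocalin-2, had 0 to 4 counts in the KO LPS libraries, and 21, 11917, 7104 and 9361 counts in WT LPS replicates 1 to 4. Timp1, encoding a metalloprotease inhibitor, had 0.183 ± 0.0789 CPM in KO LPS and 6.64 ± 4.42 CPM in WT LPS (SD, n = 4 each). Cp, encoding the ferroxidase ceruloplasmin, rose by 2.12 ± 0.36 in WT (adjusted p = 0.00449, edgeR). Of the 11 tested genes of the LPS-type set, 9 rose in WT and 10 were lower in KO under LPS, beside 4.72% and 7.28% of all genes. The GTPase genes Gbp2 and Iigp1 and the MHC class I gene H2-T23 led in both, with 3.24 ± 0.5, 2.6 ± 0.43 and 1.62 ± 0.24 for LPS against PBS in WT (adjusted p 0.0027 to 0.00377, edgeR). H2-T23, unlike the 6 called genes among the 10, was above all WT PBS libraries in all 4 WT LPS libraries (17.2 to 41 CPM, against 9.8 to 11.6 CPM). Gbp2, Iigp1, H2-T23 and Serpina3n have close relatives among which reads can be divided, so their separate levels are uncertain. Of 7 tested genes of the ischaemia-type set outside the 10, 1 rose in WT, the LPS co-receptor gene Cd14 (1.74 ± 0.33, adjusted p = 0.00649, edgeR), which was also lower in KO under LPS (-1.46 ± 0.32, adjusted p = 0.0122, edgeR).

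Of 16 astrocyte identity genes, 1 rose and 3 fell after LPS in WT, with a median change of 0, where 4.72% of all genes rose and 3.85% fell. Aldh1l1, the folate enzyme used as a pan-astrocyte marker, rose by 0.55 ± 0.12 (adjusted p = 0.0154, edgeR). The bicarbonate transporter gene Slc4a4 fell by 0.48 and the potassium channel gene Kcnj10 by 0.59 on the log2 scale (adjusted p = 0.0155 and 0.0279, edgeR). Under LPS 2 of the 16 were higher in KO and 3 lower (4.61% and 7.28% of all genes), led by Slc4a4 (0.53 ± 0.11), Fgfr3 (-0.53 ± 0.14) and Aldh1l1 (-0.47 ± 0.12; adjusted p 0.00806 to 0.0265, edgeR). The mean log2 level of the 16 genes stayed between -0.18 and 0.08 relative to the WT PBS mean in all 16 libraries, while that of the 10 reactive genes ran from -0.25 to 1.73 in the WT LPS libraries.

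Of 22 tested genes of the inducing signals, 10 rose and 1 fell after LPS in WT (4.72% and 3.85% of all genes), and 10 were lower and 1 higher in KO under LPS (7.28% and 4.61% of all genes). Il1b is among the 10 in both, but it reached the filter level in enough libraries only through WT LPS, so it adds nothing to either count. Socs3, the feedback inhibitor of STAT3, had 2.29 ± 0.664 CPM in KO LPS, 8.42 ± 3.15 CPM in WT LPS and 2.62 ± 0.478 CPM in WT PBS (SD, n = 4 each). It rose by 1.69 ± 0.29 in WT (adjusted p = 0.00455, edgeR) and was lower in KO under LPS by -1.88 ± 0.3 (adjusted p = 0.00313, edgeR). Under PBS every KO library lay below every WT library for Socs3, as in 1.82% of genes, but the difference did not pass (-0.93 ± 0.31, adjusted p = 0.918, edgeR). For LPS against PBS in KO, Socs3 stood at 0.73 ± 0.31 and did not pass either (adjusted p = 0.703, edgeR). Tnfrsf1a, a receptor of tumour necrosis factor, rose by 1.18 ± 0.22, and C1qb, a chain of complement C1q, by 1.26 ± 0.23 (adjusted p = 0.00649 and 0.00559, edgeR). Il1b, encoding interleukin-1 beta, had 4 to 6 counts per library in KO LPS and 9 to 51 in WT LPS. Il6, Osm and Tnf were not tested. Of 37 tested partners and paralogues of the 10 genes, 3 rose and 7 fell in WT, and 9 were higher and 3 lower in KO under LPS. The 3 that rose and the 3 that were lower lie near the shares over all genes, 4.72% and 7.28%. The 7 that fell and the 9 that were higher stand beside 3.85% and 4.61% of all genes. The 3 that rose were Msn, Hspb6 and Spp1, and these were also the 3 that were lower in KO under LPS (-1.18 to -2.08).

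**Figure D5:**
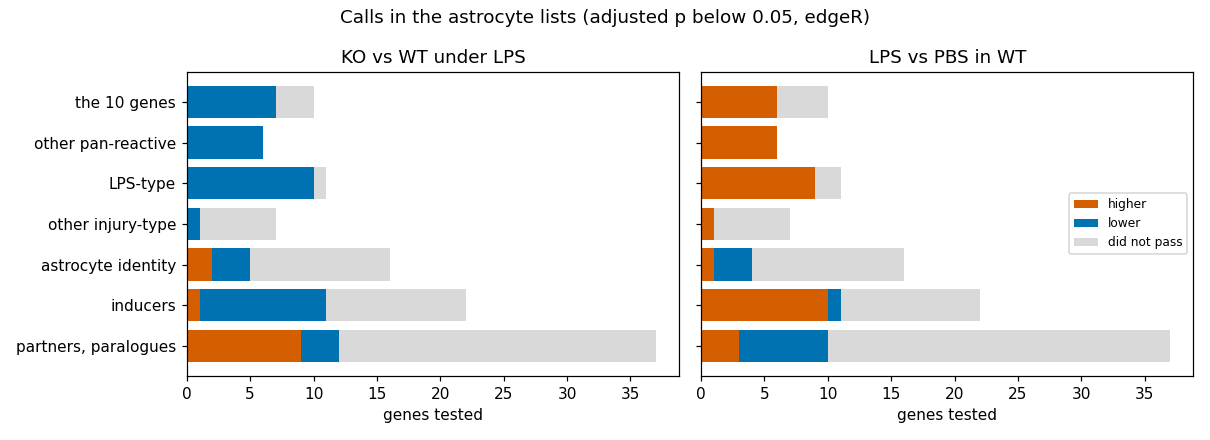
Number of genes in each list that were higher, lower or did not pass (adjusted p below 0.05, edgeR), for KO against WT under LPS (left) and LPS against PBS in WT (right). Most identity genes did not pass in either panel, and the 6 other shared reactivity genes include Lcn2 and Timp1, which reached the filter level through WT LPS. Il1b, in the list of inducers, did so too.

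In the KO comparison of LPS with PBS, and between genotypes under PBS, none of these lists held a gene that passed. In the interaction, 3 LPS-type genes passed with a negative value (Gbp2 -3.1 ± 0.7, Psmb8 -2.8 ± 0.64 and Iigp1 -2.74 ± 0.6), where 0.596% of all genes passed in that direction. There 3 partners and paralogues passed with a positive value (Cryab 1.09 ± 0.23, Pmp22 0.83 ± 0.15 and Nefm 0.74 ± 0.17), where 0.553% of all genes did, and no member of the other 4 lists named here passed. Except for Pmp22 (adjusted p = 0.0432, edgeR), their adjusted p rounded to the threshold, and without the library labelled KO PBS replicate 1 neither list held a gene that passed.

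Markers of other cells were counted in the same comparisons, where 4.72% of all genes rose and 3.85% fell after LPS in WT, and 7.28% were lower and 4.61% higher in KO under LPS. Leukocyte markers summed to 6.47, 22.2, 16.1 and 23.4 CPM in WT LPS replicates 1 to 4 and to at most 6.89 CPM elsewhere. Their genes S100a8, S100a9 and Ngp reached the filter level in enough libraries only with WT LPS, so no count of leukocyte genes is given. The T cell gene Cd3e had at most 2 counts in a library. Of 8 oligodendrocyte genes, 6 were lower after LPS in WT and 6 higher in KO than in WT under LPS. Of 8 endothelial genes, 2 were lower after LPS in WT and 4 lower in KO under LPS, led by Pecam1 (-0.88 ± 0.18, adjusted p = 0.0088, edgeR). Under PBS none of these 8 passed, but all 8 had negative fitted differences of KO against WT (median -0.29). Their summed levels were 147 to 177 CPM in KO PBS and 186 to 235 CPM in WT PBS. Of 8 microglial genes, 1 was lower after LPS in WT, and 1 lower and 2 higher in KO under LPS. Of 10 mural cell and fibroblast genes, 1 was lower after LPS in WT and 1 higher in KO under LPS, of 8 neuronal genes 2 were higher in KO under LPS, and of 7 thalamic and cerebellar genes 1 was lower after LPS in WT. A count of 1 in such a list is near the share over all genes. The 7 thalamic and cerebellar genes nonetheless had a median log2 fold change of -1.21 for LPS against PBS in WT, with none above 0. Summed levels of this list were 232, 722, 738 and 119 CPM in WT PBS replicates 1 to 4, and 98.7 to 243 CPM in WT LPS. They ran from 97.8 to 625 CPM in KO PBS and from 273 to 499 CPM in KO LPS. No choroid plexus or ependymal gene passed in any comparison. Their part in the levels of the 10 genes was not tested, nor was that of leukocytes, endothelium, microglia or thalamic and cerebellar tissue.

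The genes nearest to each of the 10 across the 16 libraries were ranked by the root mean square difference of standardised log2 CPM, among 13294 genes, where 0 means identical profiles. Gfap was nearest to Capg (0.178), C4b (0.195) and Psmb8 (0.199), which encode an actin-capping protein, complement C4 and an immunoproteasome subunit. Aspg was nearest to Tnfrsf1a (0.2), Ctla2a (0.227) and C4b (0.232). Vim was nearest to Clic1 (0.248), Zfp956 (0.264) and Mvp (0.266), and Steap4 to Parp12 (0.249), Serpina3n (0.323) and Tap1 (0.333). Emp1 was nearest to Adamts1 (0.259), Adamts9 (0.291) and Serpina3n (0.293), and Hspb1 to Tmem110 (0.327), Shc1 (0.352) and Pvr (0.361). Cd109 was nearest to Slc2a9 (0.356), Lrrc20 (0.38) and Cnn3 (0.397). The remaining 3 had no close neighbour: the nearest were Trp53 to Ptx3 (0.504), Slc15a3 to Cd44 (0.561) and Fam155a to S1pr3 (0.623). Among the 10 genes themselves, Gfap and Aspg (0.294), Gfap and Emp1 (0.297) and Gfap and Vim (0.37) were closest, and Cd44 and Cd109 (1.59) were farthest apart.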

How the data were processed

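Total RNA of mouse hippocampus was sequenced in 16 libraries, and groups and replicate numbers were read from the labels. The deposited table gives estimated counts per gene, all of them whole numbers. MultiQC 1.13, Salmon 1.9.0, DESeq2 and DESeq are named, per the submitters' processing notes, with no role given. The authors worked on a genome build not given in the sources used here, and positions are those of GENCODE M21 on GRCm38. Of the 19449 identifiers, 105, with 0.0537% of the counts, were absent from that annotation.

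The filterByExpr filter of edgeR 4.0.16 (R 4.3.3) kept 16269 genes with 99.97% of the counts and removed 3180. After TMM scaling, all 16 libraries entered a quasi-likelihood fit with 4 group means (biological coefficient of variation 0.177). Benjamini-Hochberg adjustment ran over all genes tested, with a threshold of 0.05. The SE is the size of the log2 fold change divided by the root of F. For log2 CPM a prior count of 2 was added. The pipeline was tested on simulated data. Depth was 30198619 to 50009041 counts, and the sources used here mention no molecular identifiers.

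The 10 genes and all lists were chosen with earlier results of these data known, so their directions are no independent evidence. Named are the 10 genes, Tspo, up to 3 passing genes with the smallest p of each other list in each comparison, and the 3 nearest genes of each of the 10 with a mean log2 CPM of at least 1. Genes named beyond this (Hspb6, Msn, Spp1, Synm, Nes, Ttr, Cd3e) were chosen after their values were seen. WT PBS replicates 2 and 3 were the most alike pair (chi-square per gene 3.78, other pairs 12.3 to 114). Their difference was beyond sampling noise, which does not show that they come from different animals. They were counted separately. Alternatives were RLE scaling, DESeq2 1.42.0, no filter, a filter of 1 CPM in 4 libraries, a replicate block, only the 8 libraries compared, WT PBS replicates 2 and 3 summed, the libraries low in choroid plexus transcripts left out, and each library left out. Leaving out WT LPS replicate 1 and the library labelled KO PBS replicate 1 together was chosen after seeing the data. Promoters came from RefSeq.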

Additional observations from a re-analysis of the deposited data

Results flagged for a closer look

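In the WT LPS group, 3 of the 10 genes had a library far from the other 3, and it was replicate 1 each time. Gfap stood at 225 CPM there, against 989 to 1230 CPM in the others, a gap that took 0.87 of the group's range in log2 CPM. Aspg stood at 3.15 CPM, against 14.6 to 16.5 CPM (0.927 of the range). Steap4 stood at 0.336 CPM, against 4.66 to 6.96 CPM (0.863 of the range). The critical share for 4 libraries is 0.829. Chance flags about 1 in 20 groups, and 40 groups of 4 libraries were looked at, of genes that share these libraries.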

How the results depend on the processing

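Of 1234 values of single genes under other settings, 1130 kept their direction and side of the threshold, 34 newly passed, 44 no longer passed and 26 changed sign. The 6 calls for LPS against PBS in WT became 0 in a fit of only the 8 libraries compared, 2 with WT PBS replicates 2 and 3 summed, and 2 to 7 with a library left out, lowest without WT PBS replicate 2 or 3 or WT LPS replicate 2. The 7 calls for KO against WT under LPS became 0 with only the 8 libraries (adjusted p 0.0502 for Aspg, 0.061 for Gfap) and 6 to 8 with a library left out. Fewer libraries estimate the spread in those fits, and the cause was not tested. In the interaction, the 0 calls became 5 with DESeq2, 6 without both libraries low in choroid plexus transcripts, 6 without WT LPS replicate 1 and the library labelled KO PBS replicate 1, and 0 to 7 with a library left out. In the other comparisons they stayed at 0.

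Over all genes, the 1394 calls for LPS against PBS in WT became 2096 with DESeq2, 0 with the 8 libraries, 670 with the summed pair, 3099 without the low-choroid libraries, 3271 without the other pair of libraries and 538 to 3380 with a library left out. The 1935 for KO against WT under LPS became 438, 4036 and 3907 under the 8 libraries, low-choroid and other-pair settings, and 858 to 4005. The 0 in KO became 3 with DESeq2 and 0 to 1. The 6 under PBS became 17 with DESeq2, 3 with the replicate block, 1 with the summed pair and 1 to 9. The 187 of the interaction became 63 with RLE scaling, 1278 with DESeq2, 39 without a filter, 42 with the CPM filter, 0 with the replicate block or the summed pair, 2364 and 2400 without the pairs of libraries, and 0 to 2655. Same-numbered libraries did not in general deviate together (correlations -0.222 to 0.364), so the numbers were not taken to pair them. The highest value was that of WT LPS replicate 1 with WT PBS replicate 1, the libraries low in choroid plexus transcripts. With the replicate block 5 of the 10 genes passed in WT and 6 under LPS.

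The Tspo difference ran from -4.8 to -4.08 under LPS and from -3.15 to -1.98 under PBS with a library left out. Signs changed for differences near 0 that never passed. Steap4 between genotypes under PBS was -0.16 and became 0.05 with the block, with a range of -0.48 to 0.36 over left-out libraries. Cd44 there became 0.23 without the low-choroid libraries (-0.33 to 0.23), and Aspg -0.12 without the other pair (-0.12 to 0.17). For LPS against PBS in KO, Aspg became 0.08 without that pair (-0.25 to 0.08), Cd44 ran from -0.16 to 0.17 and Hspb1 from -0.02 to 0.29. S1pr3 ran from -0.02 to 0.17 for LPS against PBS in WT, from -0.18 to 0.01 under LPS and from -0.08 to 0.11 in the interaction, where it was -0.1 and -0.06 without the pairs.

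Ptx3, Steap4 and Il1b had few counts per library, which limits their precision, and title codes that follow the groups cannot be told apart from them.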

Other observations

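WT LPS replicate 1 was not at the PBS level for every gene that moved in its group. Summed oligodendrocyte transcripts were 4340 CPM there and 8120, 4730 and 3400 CPM in WT LPS replicates 2 to 4, against 6890 to 9080 CPM in WT PBS. The lowest of these WT PBS sums was that of replicate 1, the other library low in choroid plexus transcripts. The part of tissue sampling in this sum was not tested. Leukocyte transcripts summed to 6.47 CPM in WT LPS replicate 1, inside the WT PBS range of 4.95 to 6.79 CPM. The MHC class I gene H2-T23, at 17.2 CPM in its lowest WT LPS library, was still above the WT PBS maximum of 11.6 CPM. Lcn2 had 21 counts in WT LPS replicate 1, above the 2 to 9 counts of the WT PBS libraries and far below the 7104 to 11917 counts of the other WT LPS libraries.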
